A study of Homo sapiens with 32 samples.

Results

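The human collagen genes are the symbols of the form COL, a type number, A and a chain number, and 43 of the 25559 symbols in the deposited count tables match that form. The choice rests on the symbol and uses no measured value. Raw RNA-seq counts were deposited for 32 libraries from 4 established lines of malignant T cells: HH and H9 come from cutaneous T-cell lymphoma, TLOm1 from adult T-cell leukemia, PF382 from T-cell acute lymphoblastic leukemia. Each line gave 8 libraries: romidepsin with azacitidine at 3 doses, romidepsin alone, azacitidine alone at the same 3 doses, and untreated cells. Romidepsin is a histone deacetylase inhibitor and azacitidine a nucleoside analogue that inhibits DNA methyltransferases. All cells were collected at 96 h, with romidepsin given once at the start and azacitidine every 24 hours. TLOm1 and H9 cells received 1 nM romidepsin and PF382 cells 1.25 nM. In HH it was 1 nM alone but 1.25 nM in the combinations, so that contrasts between these HH libraries differ in 2 respects. Azacitidine was used at 125, 250 and 500 nM in PF382 and TLOm1 and at 50, 125 and 250 nM in HH and H9. The titles of the combination libraries carry no unit, and their numbers are read here as nM. Each condition of each line is 1 library, so the 4 lines served as the replicates of a treatment, and p-values measure the spread between libraries of transformed lines grown without stroma. The libraries held 16175077 to 32496676 counts, and the limit of 3 counts that a count of 0 allows came to between 0.0982 and 0.196 CPM, the counts scaled by library size.

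Collagens are triple-helical proteins of the extracellular matrix, built from 3 chains that may be copies of 1 gene's product or products of several genes. Fibrillar collagens form the tensile fibres of skin, bone and cartilage, type IV collagens the sheets of basement membranes, and fibril-associated collagens decorate the surface of fibres. Type VI collagen makes beaded filaments around cells, and further classes hold anchoring fibrils, short-chain network collagens, transmembrane collagens and the multiplexins that release endostatin-like fragments. Fibroblasts, chondrocytes and epithelia are the main producers in tissue, and T cells are known chiefly as cells that bind collagen through receptors.

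The untreated lines expressed few collagen genes, and not the same ones. A gene is called silent here where it had under 10 counts in an untreated library. Of the 43 members, 17 (39.5%) were silent in all 4 lines, against 35.8% of all 25559 symbols. The 17 were COL1A2, COL2A1, COL3A1, COL4A1, COL5A1, COL6A6, COL8A1, COL8A2, COL10A1, COL11A1, COL13A1, COL14A1, COL15A1, COL17A1, COL21A1, COL23A1 and COL28A1. They include 5 of the 11 fibrillar members and all 3 short-chain ones. COL3A1, COL11A1, COL13A1 and COL21A1 had 0 counts in each untreated library. COL5A2, COL6A3, COL7A1, COL9A2, COL11A2 and COL18A1 reached 10 counts in every untreated line. With a limit of 3 counts in place of 10, 10 members were silent in all lines.

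Each untreated line was led by another collagen once CPM was divided by exon length. In PF382 the highest member was COL9A3, a chain of the fibril-associated type IX collagen, at 3.98 CPM per kilobase, followed by COL6A2 at 3.22. In TLOm1 the type IX chain COL9A2 stood at 12.6 and the type IV chains COL4A6 and COL4A5 at 8.32 and 5.64 CPM per kilobase. HH had the highest value of all, 44.8 CPM per kilobase of COL6A3, the large chain of type VI collagen, with COL9A2 at 22.6 and COL4A6 at 12.3. H9 was led by another type VI chain, COL6A1, at 6.63 CPM per kilobase, with COL11A2 at 2.02. The untreated lines held 14, 15, 14 and 12 members at 10 counts or more in PF382, TLOm1, HH and H9, and 11 members passed that level in 1 line only. In the same order, 29, 28, 29 and 31 of the 43 members were silent, beside 11424, 11829, 12061 and 11529 of all 25559 symbols.

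**Figure D1:**
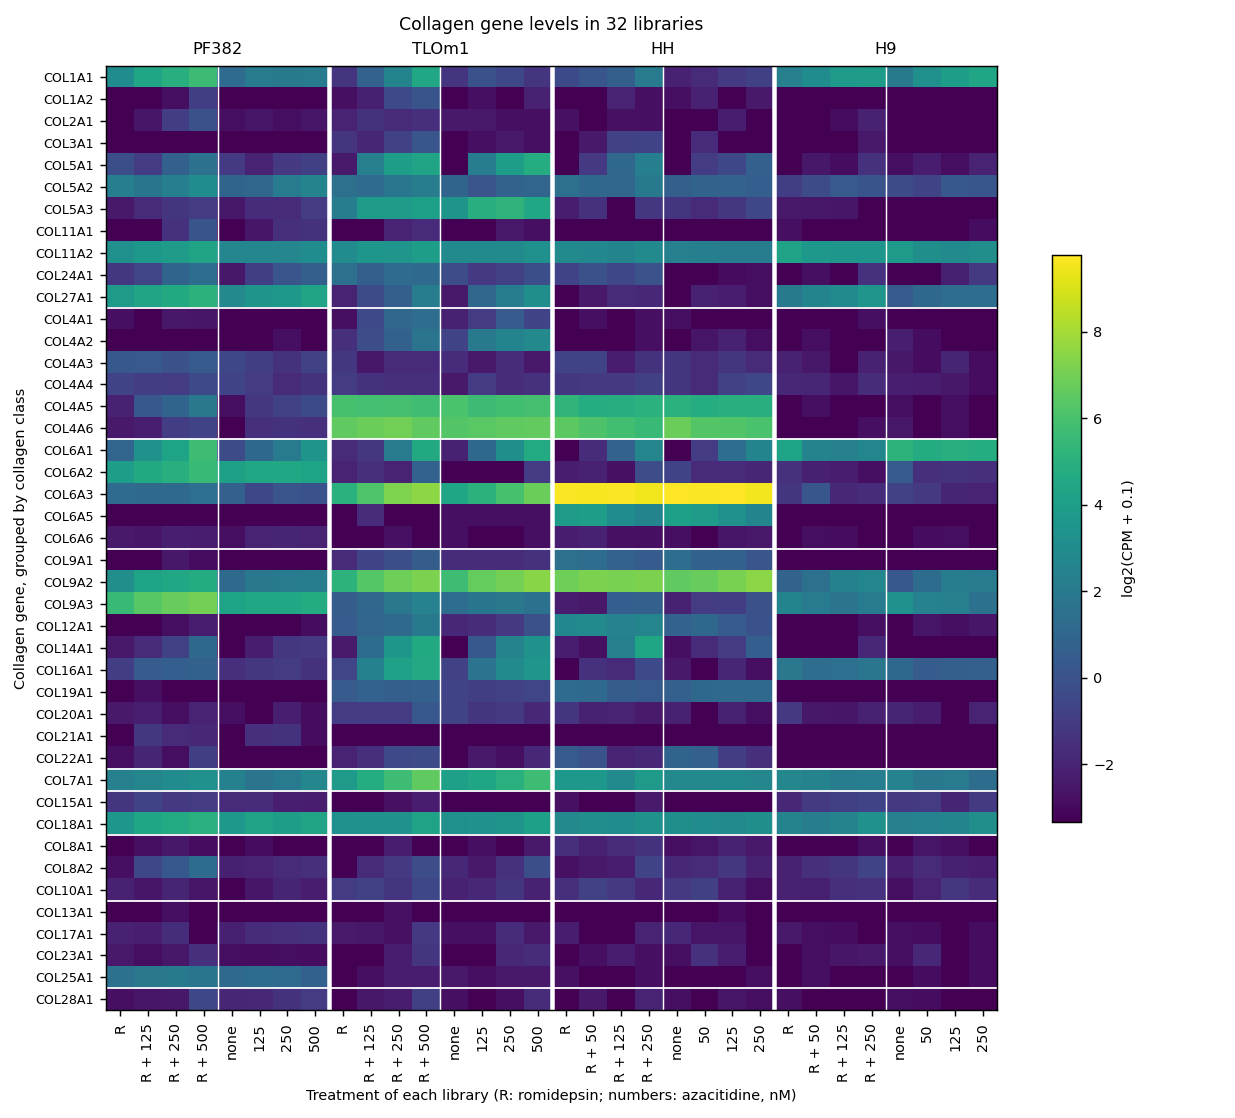
Level of each of the 43 collagen genes (rows, grouped by collagen class) in each of the 32 libraries (columns), as log2 of CPM plus 0.1. Within each line the 4 romidepsin libraries (R) stand left of the 4 libraries without it, and numbers give azacitidine in nM; COL6A3 in HH is the brightest row, while 6 members, among them COL13A1, stay dark in all libraries.

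With romidepsin, more silent collagen genes crossed 10 counts at the higher azacitidine doses, and H9 had the fewest. In PF382, 2, 6, 8 and 14 of 29 silent members reached 10 counts with romidepsin plus 0, 125, 250 and 500 nM azacitidine, against 1, 3 and 6 with 125, 250 and 500 nM azacitidine alone. At the highest dose that was 48.3% of silent members with romidepsin and 20.7% without, where 17.5% and 10.1% of all silent symbols did so. In TLOm1, 1, 8, 11 and 14 of 28 silent members did so with romidepsin, against 5, 6 and 7 without it. The share at 500 nM was 50% with romidepsin and 25% without, against 15.04% and 9.86% of all silent symbols. HH counted 3, 4, 7 and 10 of 29 with romidepsin plus 0, 50, 125 and 250 nM azacitidine, against 0, 8 and 7 without. Its share at 250 nM was 34.5% with romidepsin and 24.1% without, against 9.34% and 6.01% of all silent symbols. In H9, 0, 0, 1 and 2 of 31 did so with romidepsin, against 1, 0 and 2 without, and the highest shares of 6.45% lay beside 5.59% and 4.57% of all silent symbols. Other members fell below 10 counts. In H9 these were COL6A2 and COL6A3, with 2, 1, 2 and 2 falls with romidepsin and 1, 2 and 2 without. In HH they were COL6A2 and COL22A1, with 1, 1, 2 and 1 falls with romidepsin and 1, 1 and 2 without. In PF382 and TLOm1, 0 to 2 members fell per library. Falls were not counted over all symbols. These are single libraries with no test, and a crossing can be a change of few counts. The limit is on raw counts, so it also depends on depth. In HH the libraries at 50, 125 and 250 nM azacitidine alone held 16175077, 32496676 and 24802636 counts, so dose and depth both differ between them. In these bulk libraries more cells with a transcript and more transcript per cell cannot be told apart.

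Of the 17 members silent in all 4 untreated lines, 11 reached 10 counts in at least 1 treated library; among all 9140 symbols silent in the 4 lines, 2020 did. The other 6, COL6A6, COL8A1, COL13A1, COL17A1, COL21A1 and COL23A1, remained under 10 counts in all 32. COL13A1, COL17A1 and COL23A1 are transmembrane collagens, and COL25A1, the remaining member of that class, had 44 to 98 counts in the PF382 libraries and at most 2 elsewhere. COL11A1, the type XI chain of cartilage fibrils, had 0, 0, 7 and 27 counts in PF382 with romidepsin plus 0, 125, 250 and 500 nM azacitidine, against 0, 2, 6 and 8 counts without romidepsin. It failed the filter on low counts and was not tested.

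**Figure D2:**
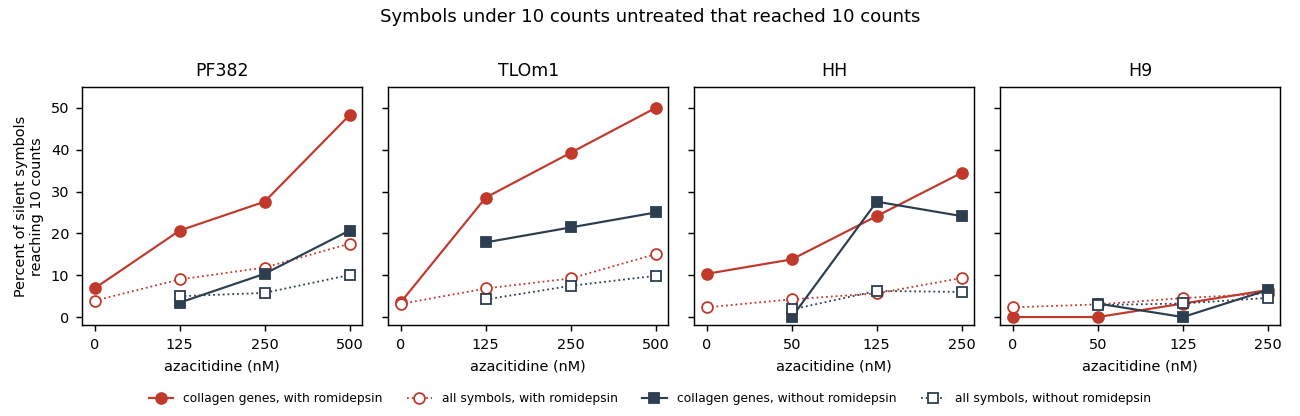
Percent of symbols under 10 counts in the untreated library that reached 10 counts in a treated library (y axis), by azacitidine dose in nM (x axis, doses evenly spaced), for the collagen genes (filled) and all symbols (open), with romidepsin (red circles) and without it (dark squares). Collagen genes reach 50% in TLOm1 and 48.3% in PF382 with romidepsin plus 500 nM azacitidine, while in H9 no value passes 6.45%.

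Tests across the 4 lines used all 32 libraries in 1 model with a term for the line. A gene is called where the adjusted p of edgeR's quasi-likelihood test was under 0.05 over the 17801 symbols that passed the filter. The filter kept 36 of the 43 members. Members that are silent in untreated cells passed it only through treated libraries, so counts and medians over the 36 describe them and support nothing further.

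Romidepsin alone against untreated cells called 0 of the 36 members, with 0.0169% of all tested genes called. At an unadjusted p under 0.05 there were 5 members and 998 genes, and DESeq2 and limma also called 0 members. The median log2 fold change over the members was 0.27, against 0.01 over all tested genes. Azacitidine at 125 nM called 0 members in edgeR's test, with 0.461% of genes called (0.365% higher, 0.0955% lower). Under an unadjusted p of 0.05 it had 4 members and 1763 genes (9.90%). At 250 nM, with 5.99% of genes called (3.85% higher, 2.14% lower), it called 1 member, COL14A1; 3 were called without PF382 or without H9, 4 by DESeq2 and 2 by limma. The median change over the members there was 0.25, against 0.03 over all tested genes.

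The combination called more members. With 125 nM azacitidine plus romidepsin, 3 of 36 were higher than in untreated cells (COL1A1, COL12A1 and COL14A1) and 0 lower, with 7% of genes called (4.4% higher, 2.6% lower). COL1A1 was lost there without PF382 (adjusted p = 0.0763) or HH (0.0798), and COL12A1 without PF382 (0.0517), TLOm1 (0.200) or HH (0.0973), so that 1 call was left without HH. With 250 nM plus romidepsin, 14 members were higher and 0 lower, with 23% of all tested genes called in either direction, 14.2% higher and 8.76% lower. The median log2 fold change was 0.92 over the members and 0.04 over all tested genes, and 31 of 36 members (86.1%) had a positive estimate, against 54.5% of genes. With 500 nM plus romidepsin, given to PF382 and TLOm1 alone, 20 members were higher and 0 lower. Of all tested genes 38.1% were called there, 22.4% higher and 15.8% lower. In edgeR fits without the line term 0 of the members were called at 250 nM. On the 8 compared libraries alone, where 16 members passed the filter, 0 were called. Without PF382 there were 8 calls and without HH 9.

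**Figure D3:**
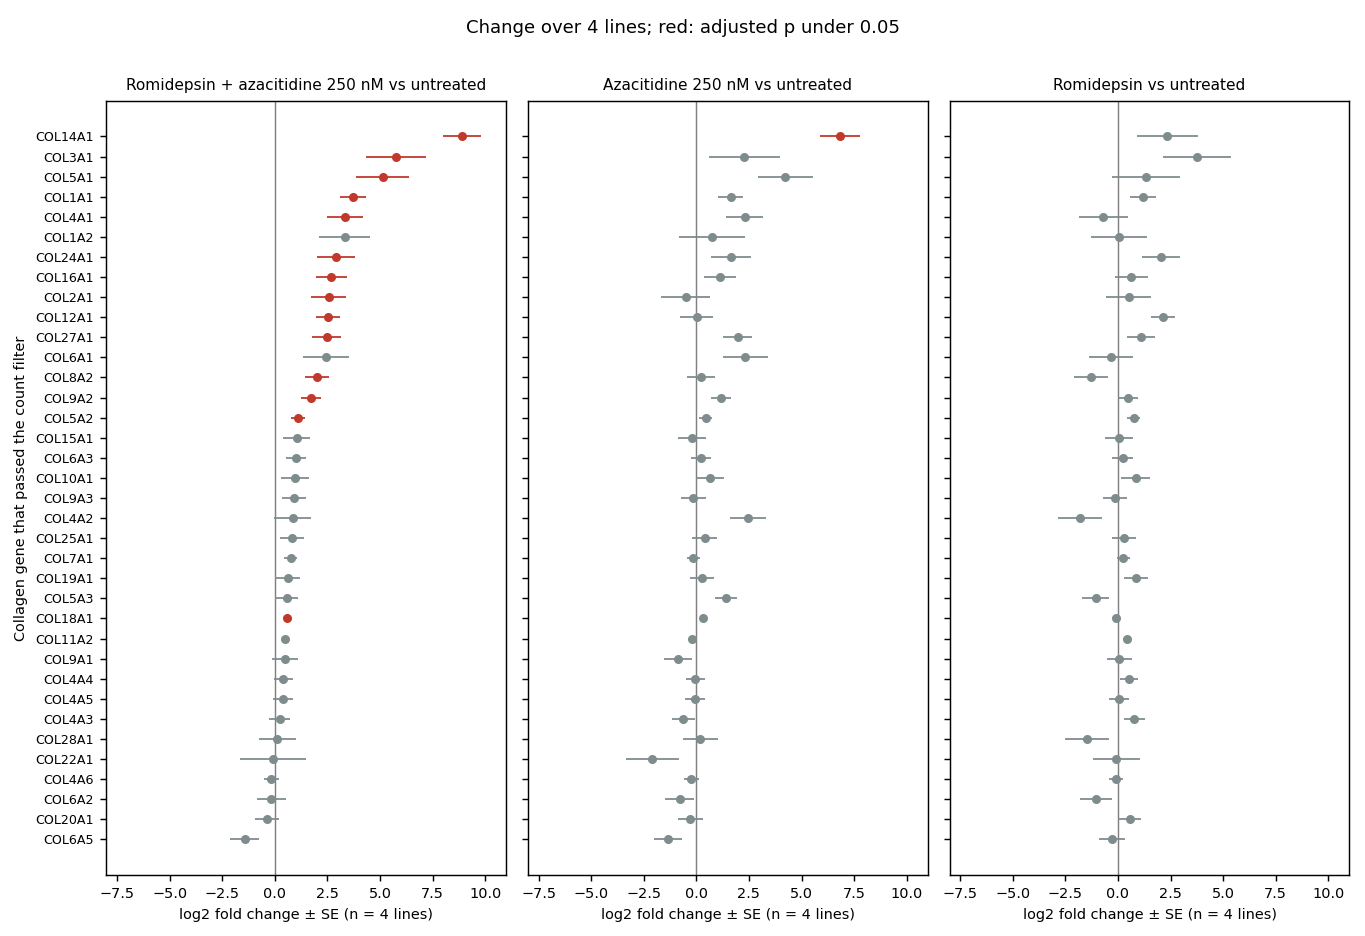
Log2 fold change over the 4 lines (x axis, point) with its standard error (bar) for the 36 tested collagen genes (y axis, ordered by the combination), for romidepsin plus 250 nM azacitidine, 250 nM azacitidine and romidepsin, each against untreated cells; red marks an adjusted p under 0.05. The combination has 14 red points, all to the right of 0, azacitidine 1 (COL14A1) and romidepsin 0; estimates for genes with few untreated counts depend on the model's prior count.

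The fibrillar collagens gave 7 of the 14 calls for the combination at 250 nM, out of 10 tested. COL1A1, the alpha-1 chain of type I collagen, had 794, 120, 88 and 344 counts in PF382, TLOm1, HH and H9 with romidepsin plus 250 nM azacitidine, against 57, 7, 3 and 101 in the untreated libraries. It was higher in each of the 4 lines, and across lines the ranges overlap. The log2 fold change was 3.71 ± 0.61 (SE, adjusted p = 0.00022, higher in 4 of 4 lines), and the call held with any 1 line left out. COL1A2, its alpha-2 partner, had 1, 13, 1 and 0 counts with the combination, against 0, 0, 1 and 0 untreated, and was not called (adjusted p = 0.0609). The summed counts, 15 against 1, gave a ratio of 16.1 with an exact 95% interval of 2.47 to 677 that covers counting error only. Type I collagen is usually made of both chains, and only in PF382 and TLOm1 with the combination did COL1A2 reach 10 counts, at most 19.

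COL5A1, a type V chain that helps set the diameter of fibres, had 39, 317, 107 and 6 counts in PF382, TLOm1, HH and H9 with romidepsin plus 250 nM azacitidine, against 9, 0, 0 and 1 untreated. The groups overlap through the low H9 count. The sums of 469 and 10 gave a ratio of 50.3 (27.1 to 106), and the adjusted p was 0.00608 with 4 of 4 lines higher, though without HH it was 0.0747. COL5A1 had 9, 368, 36 and 4 counts with 250 nM azacitidine alone, a ratio of 40.4 to untreated cells (21.8 to 84.9), and was not called (adjusted p = 0.0546). Its partner COL5A2 had 126, 69, 84 and 22 counts with the combination, against 44, 41, 34 and 18 untreated. COL5A2 was higher in 4 of 4 lines by a smaller log2 fold change of 1.10 ± 0.31 (adjusted p = 0.0144), which was not called without PF382 (0.0819) or HH (0.106).

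The window of 300 bases around the RefSeq start of COL5A1, from 250 before to 50 after it on GRCh38.p14, is shown with its CG pairs in capitals because CG pairs are the sites of DNA methylation. It lies on the plus strand at chr9:134641555-134641854 and holds 37 CG pairs, with an observed over expected CG ratio of 0.89.
COL5A1: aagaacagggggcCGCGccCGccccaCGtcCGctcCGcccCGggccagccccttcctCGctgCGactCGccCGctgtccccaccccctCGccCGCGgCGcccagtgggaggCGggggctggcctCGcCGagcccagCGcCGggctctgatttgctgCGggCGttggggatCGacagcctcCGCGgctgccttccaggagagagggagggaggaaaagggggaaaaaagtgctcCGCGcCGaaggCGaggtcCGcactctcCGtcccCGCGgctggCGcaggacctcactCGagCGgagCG

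COL27A1 and COL24A1 are fibrillar collagens known from developing cartilage and bone. COL27A1 had 639, 29, 4 and 254 counts in PF382, TLOm1, HH and H9 with the combination at 250 nM, against 173, 2, 0 and 31 untreated. The log2 fold change was 2.48 ± 0.68 (adjusted p = 0.0127, 4 of 4 lines), lost without HH (0.0574) or H9 (0.118). COL24A1 had 45, 47, 20 and 6 counts with the combination, against 2, 18, 0 and 0 untreated, a log2 fold change of 2.90 ± 0.89 (adjusted p = 0.0235, 4 of 4 lines), lost without PF382 (0.120) or HH (0.0874). Both were higher within each line, and neither gene's groups are apart across lines. The start windows of both are shown for comparison with COL5A1, COL27A1 on the plus strand of chr9:114155287-114155586 and COL24A1 on the minus strand of chr1:86156422-86156721. COL27A1 has 16 CG pairs at a ratio of 0.50 and COL24A1 has 18 at 0.73.
COL27A1: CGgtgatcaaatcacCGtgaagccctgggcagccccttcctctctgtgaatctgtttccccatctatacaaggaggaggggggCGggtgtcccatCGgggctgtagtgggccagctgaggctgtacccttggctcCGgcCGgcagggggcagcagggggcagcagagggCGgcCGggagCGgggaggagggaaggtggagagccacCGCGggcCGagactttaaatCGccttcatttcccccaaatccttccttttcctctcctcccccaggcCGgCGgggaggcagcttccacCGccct
COL24A1: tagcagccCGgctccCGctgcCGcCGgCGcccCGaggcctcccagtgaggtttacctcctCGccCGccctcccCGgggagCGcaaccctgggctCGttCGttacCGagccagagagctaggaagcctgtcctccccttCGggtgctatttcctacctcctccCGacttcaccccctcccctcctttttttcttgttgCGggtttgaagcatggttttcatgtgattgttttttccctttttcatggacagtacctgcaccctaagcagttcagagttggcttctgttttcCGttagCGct

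COL2A1 and COL3A1 were called on few counts. COL2A1, the main chain of cartilage fibrils, had 11, 4, 1 and 3 counts in PF382, TLOm1, HH and H9 with the combination at 250 nM, against 1, 2, 0 and 0 untreated. The sums of 19 and 3 gave a ratio of 6.79 (1.999 to 35.8; adjusted p = 0.0347), lost without HH (0.0705) or H9 (0.117) and with DESeq2 (0.0894). COL3A1, the type III collagen of skin and vessels, had 0, 10, 11 and 2 counts with the combination, against 0 in all 4 untreated libraries. It was at least 8.22-fold higher over the group (adjusted p = 0.0108, 3 of 4 lines), lost without TLOm1 (0.0563) or H9 (0.0717) and with DESeq2 (0.251). PF382 had 0 counts of COL3A1 in all 8 libraries. Among the other fibrillar members COL11A2, an XI chain found in all lines, had a log2 fold change of 0.50 (adjusted p = 0.0569) and COL5A3 was not called.

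The fibril-associated collagens gave 4 of the 14 calls, out of 9 tested. COL14A1, a collagen that binds fibre surfaces, had 13, 245, 463 and 4 counts in PF382, TLOm1, HH and H9 with romidepsin plus 250 nM azacitidine, against 0, 0, 1 and 0 untreated. Every combination library exceeded every untreated one. The adjusted p was 1.18e-06, the ratio of summed counts had an exact 95% lower bound of 139, and the call held with any 1 line left out. Azacitidine at 250 nM alone gave 8, 129, 33 and 0 counts, higher than untreated in 3 of 4 lines (adjusted p = 0.000161), and a ratio of 165 (29.2 to 6545). Romidepsin alone gave 2, 2, 2 and 0 counts, where the limit for a count of 0 is 3.

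COL12A1, another fibre-surface collagen, had 1, 44, 133 and 1 counts with the combination at 250 nM, against 0, 4, 37 and 0 untreated. The change came from TLOm1 and HH, since PF382 and H9 stood at or below 3 counts in all libraries. Its log2 fold change was 2.53 ± 0.58 (adjusted p = 0.00339, 4 of 4 lines), and 2.04 without TLOm1 (adjusted p = 0.0694). COL16A1 had 37, 365, 14 and 78 counts with the combination, against 6, 11, 2 and 54 untreated. The change was 2.69 ± 0.75 on the log2 scale (adjusted p = 0.0132, 4 of 4 lines), lost without PF382 (0.0517) or HH (0.0634). COL9A2, a chain of the heterotrimeric type IX collagen, had 591, 2351, 3143 and 146 counts with the combination, against 55, 1244, 2184 and 28 untreated. Its log2 fold change of 1.73 ± 0.48 (adjusted p = 0.0121, 4 of 4 lines) was not called without H9 (1.59, adjusted p = 0.0887) or by limma (0.0645). COL9A3 and COL9A1, the other type IX chains, were not called.

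COL16A1 and COL12A1 are shown because the first was higher with azacitidine in TLOm1 and the second with romidepsin in TLOm1 and HH, as described for the single lines. COL16A1 was also called higher with romidepsin in PF382 (1.89), TLOm1 (1.00) and H9 (0.93), so the pair does not set the drugs against each other. COL16A1 is on the minus strand at chr1:31703968-31704267 with 22 CG pairs and a ratio of 0.54, and COL12A1 on the minus strand at chr6:75206004-75206303 with 29 and a ratio of 1.01.
COL16A1: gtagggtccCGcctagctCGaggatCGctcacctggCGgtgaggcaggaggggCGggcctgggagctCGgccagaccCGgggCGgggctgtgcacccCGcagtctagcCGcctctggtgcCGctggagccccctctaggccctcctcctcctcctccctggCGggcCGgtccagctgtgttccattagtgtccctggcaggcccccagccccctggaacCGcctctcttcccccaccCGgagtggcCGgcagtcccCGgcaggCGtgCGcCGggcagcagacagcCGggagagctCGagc
COL12A1: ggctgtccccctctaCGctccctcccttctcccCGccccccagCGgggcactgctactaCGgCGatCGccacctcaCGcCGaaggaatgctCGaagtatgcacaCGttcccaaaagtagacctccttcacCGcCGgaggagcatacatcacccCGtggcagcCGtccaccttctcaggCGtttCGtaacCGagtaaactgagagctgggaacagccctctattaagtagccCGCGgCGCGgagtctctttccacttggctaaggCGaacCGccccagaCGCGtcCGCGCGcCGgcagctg

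In the remaining classes, COL4A1, COL8A2 and COL18A1 were called. COL4A1, a chain of nearly all basement membranes, had 2, 38, 1 and 1 counts in PF382, TLOm1, HH and H9 with the combination, against 0, 3, 1 and 0 untreated. Only TLOm1 had more than 3 counts, the ratio of the sums of 42 and 4 was 11.3 (4.09 to 43.2; adjusted p = 0.00843), and DESeq2 did not call it (0.141). Without TLOm1 it failed the filter. COL8A2, a short-chain collagen of the corneal Descemet membrane, had 29, 7, 11 and 12 counts with the combination, against 3, 4, 4 and 3 untreated. The log2 fold change was 2.02 ± 0.58 (adjusted p = 0.0156, 4 of 4 lines), lost without PF382 (0.0925) or H9 (0.0763). COL18A1, whose product carries endostatin, had 675, 211, 215 and 221 counts with the combination, against 308, 224, 207 and 135 untreated. That small change of 0.57 ± 0.17 (adjusted p = 0.0199, 4 of 4 lines after scaling) was lost without PF382 (0.143) or H9 (0.127). Exons of COL18A1 share 1401 bases, 16.4% of its length, with SLC19A1 on the opposite strand, and the strand setting of the counting is not given in the sources used here.

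COL6A1, a short chain of type VI collagen, was not called over the lines at 250 nM. It had 506, 87, 130 and 145 counts in PF382, TLOm1, HH and H9 with the combination, against 17, 3, 0 and 917 untreated. Its counts were higher in PF382, TLOm1 and HH and lower in H9, and the estimate over lines was 2.44 ± 1.10 (adjusted p = 0.112). COL6A3 (1.02), COL6A2 (-0.16) and COL6A5 (-1.43) were not called either.

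**Figure D4:**
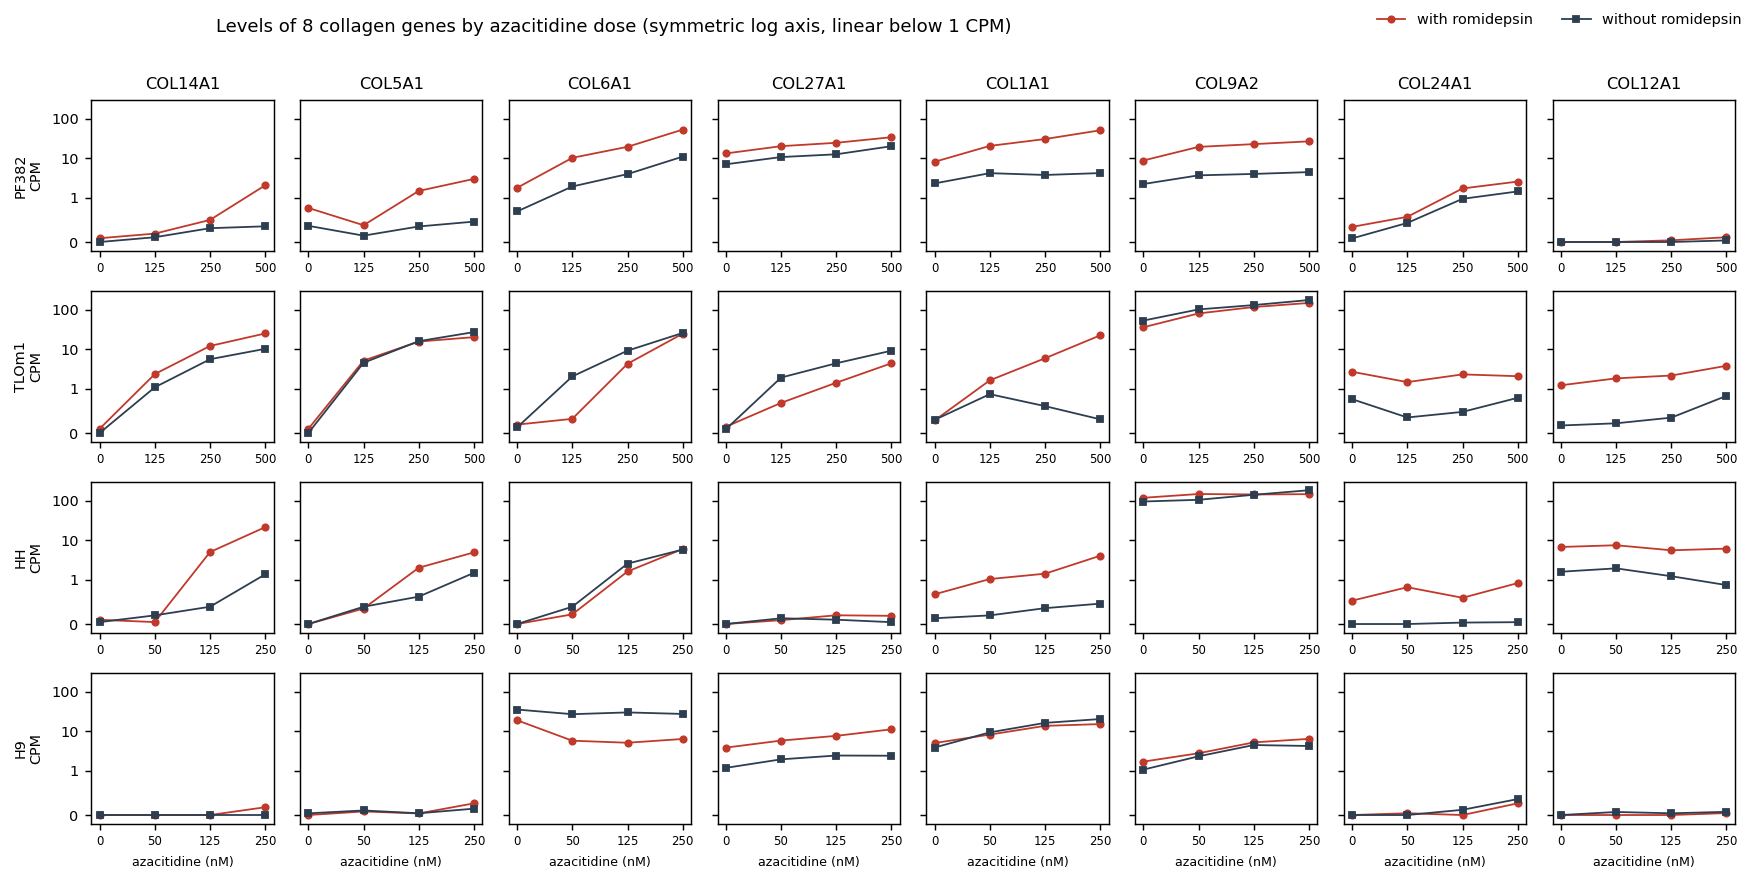
Level in CPM (y axis, log scale above 1 CPM and linear below it) by azacitidine dose in nM (x axis, doses evenly spaced) for 8 collagen genes (columns) in the 4 lines (rows), 1 library per point, with romidepsin (red circles) and without it (dark squares). COL14A1, COL5A1 and COL6A1 are highest at the top dose in TLOm1 and HH with or without romidepsin, COL12A1 and COL24A1 in HH differ by romidepsin at every dose, and COL6A1 in H9 is lower with romidepsin.

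A fit of log2 level on log2 dose, within line and romidepsin arm over the treated doses, asked whether members followed azacitidine dose. Per doubling of dose, 14 of 36 members were higher and 1 lower, with 28.9% of all tested genes called, 16.6% higher and 12.3% lower. COL14A1 had the largest slope, 1.85 ± 0.20 log2 units per doubling (adjusted p = 4.26e-06), followed among the members with more than a few counts by COL5A1 at 1.16 ± 0.12 (7.06e-07) and COL6A1 at 1.07 ± 0.22 (0.00193). These 3 calls held with any 1 line left out. COL1A1 (0.59), COL27A1 (0.54), COL5A2 (0.41), COL9A2 (0.29) and COL18A1 (0.26) were also called in every such fit. COL16A1 (0.45), COL24A1 (0.64), COL8A2 (0.66), COL1A2 (1.17) and COL28A1 (0.97) each lost the call without 1 or more lines; COL16A1 had a slope of 0.18 without TLOm1 (adjusted p = 0.277). COL4A2 (0.55) was called in the 3 fits in which it passed the filter, but not by DESeq2 (0.38, adjusted p = 0.391).

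COL6A5, a type VI chain, was the member whose level fell per doubling of dose, by 0.62 ± 0.12 on the log2 scale (adjusted p = 0.00274). It reached 10 counts in HH alone. There it had 292, 368, 165 and 128 counts with romidepsin plus 0, 50, 125 and 250 nM azacitidine, against 386, 224, 286 and 139 without romidepsin. Both arms were lowest at 250 nM. COL6A3, which joins COL6A1 and COL6A2 in type VI collagen, had 15827 to 18287 counts with romidepsin in HH and 12901 to 26293 without. Scaled by library size, COL6A3 stood at 735 to 848 CPM with romidepsin in HH and 752 to 880 CPM without.

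Adding romidepsin to 250 nM azacitidine raised 5 of 36 members over azacitidine alone and lowered 0, with 5.67% of genes called, 3.43% higher and 2.24% lower. COL12A1 (2.51 ± 0.60, adjusted p = 0.0180, 3 of 4 lines), COL1A1 (2.08 ± 0.55, 0.0301, 3 of 4), COL14A1 (2.08 ± 0.51, 0.0206, 4 of 4) and COL11A2 (0.72 ± 0.19, 0.0270, 4 of 4) were among them. COL2A1 had 19 counts with the combination against 2 with azacitidine and an adjusted p of 0.04998. The calls numbered 1 without PF382, 0 without HH and 3 without H9, and none of the 5 held in all fits without 1 line; COL14A1 dropped to 1.18 without HH (adjusted p = 0.275) and was lost without H9 (0.0818). COL1A1 was lost without PF382 (0.119), TLOm1 (0.177) or HH (0.221), as was COL12A1 (0.0526, 0.114 and 0.257) and COL11A2 (0.180, 0.0723 and 0.150), and COL2A1 was lost without TLOm1 (0.0910), HH (0.132) or H9 (0.137). COL14A1 counts of 13, 245, 463 and 4 with the combination stood against 8, 129, 33 and 0 with azacitidine in PF382, TLOm1, HH and H9, so that HH differed most.

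Adding 250 nM azacitidine to romidepsin raised 6 of 36 members over romidepsin alone and lowered 0, with 14.1% of genes called, 8.92% higher and 5.21% lower. COL14A1 had 725 summed counts with the combination against 6 with romidepsin, a ratio of 117 (53.7 to 321; adjusted p = 1.05e-05), and COL8A2 rose by 3.32 ± 0.69 log2 units (0.00276). COL1A1 rose by 2.52 ± 0.56 (0.00534), COL18A1 by 0.67 ± 0.17 (0.0128) and COL5A1 by 3.80 ± 1.13 (0.0277), each in 4 of 4 lines. COL4A1 had 42 counts against 2, a ratio of 20.4 (5.31 to 174; adjusted p = 0.0076). COL14A1, COL8A2 and COL4A1 kept the call in each leave-one-line-out fit that could test them, but DESeq2 did not call COL4A1 (adjusted p = 0.146). COL1A1 lost it without TLOm1 (0.0584), COL18A1 without PF382 (0.0967) or H9 (0.0615), and COL5A1 without TLOm1 (0.107), HH (0.204) or H9 (0.109). Departure of the combination at 250 nM from the product of the single drugs' folds was called by edgeR for 0 of 36 members, with 0% of all tested genes called. At an unadjusted p under 0.05 there were 1 member, COL8A2, and 596 genes. These contrasts share their combination libraries, and the fits without the line term or on the compared libraries alone called 0 members in both of the contrasts of single and combined drugs.

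Within single lines, romidepsin was tested as the 4 libraries with it against the 4 without it at matched azacitidine doses. Each dose was 1 library, so the azacitidine doses served as replicates and the spread came from all 32 libraries. P-values within a line do not measure the spread between repeated cultures of that line. In PF382, 21 of 36 members were higher with romidepsin and 0 lower, with 30.7% of all tested genes called and 19.1% higher; 11 were called without the 500 nM libraries. COL9A2 had 205, 510, 591 and 744 counts with romidepsin plus 0, 125, 250 and 500 nM azacitidine, against 55, 103, 103 and 126 without it. The groups did not overlap, and the log2 fold change was 2.40 ± 0.13 (adjusted p = 1.66e-10). Its partner COL9A3 rose by 1.92 ± 0.22 (4.87e-06), with 1044 to 3622 counts with romidepsin and 472 to 745 without; 0.93% of its exon length lies opposite an exon of TCFL5. COL1A1 (2.74 ± 0.40), COL6A1 (2.22 ± 0.29), COL4A5 (2.12 ± 0.22), COL5A1 (2.03 ± 0.32) and COL16A1 (1.89 ± 0.34) were called as well, and each of these held when any 1 azacitidine level was left out. COL22A1 had 1, 4, 1 and 12 counts with romidepsin against 0 in all 4 libraries without it, at least 6.15-fold higher over the group (adjusted p = 0.00219), and was not called without the 500 nM libraries (0.0652). In HH without romidepsin, COL22A1 had 41, 23, 13 and 6 counts at 0, 50, 125 and 250 nM azacitidine. With romidepsin, HH had 25, 21, 3 and 4 counts of it. COL22A1 was not called for azacitidine in HH.

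In TLOm1 romidepsin raised 15 members and lowered 4, with 32.6% of all tested genes called, 17.1% higher and 15.5% lower. COL12A1 had 26, 46, 44 and 75 counts with romidepsin plus 0, 125, 250 and 500 nM azacitidine, against 4, 5, 8 and 19 without (2.56 ± 0.27, adjusted p = 2.26e-06). COL1A1 had 6, 41, 120 and 440 counts with romidepsin, against 7, 20, 14 and 7 without (3.38 ± 0.63, 0.000916). The first gene was higher with romidepsin at every dose, the second only where azacitidine was present. The 4 lower members were COL4A2 (-1.66 ± 0.29), COL27A1 (-1.27 ± 0.19), COL5A3 (-1.03 ± 0.17) and COL9A2 (-0.32 ± 0.10). COL4A2 had 5, 19, 32 and 63 counts with romidepsin against 12, 87, 137 and 159 without. COL27A1 had 3, 17, 29 and 87 counts with romidepsin against 2, 44, 102 and 208 without. Both followed azacitidine dose in each arm and stood lower with romidepsin at each azacitidine dose above 0. COL9A2 lost its call without the libraries at 0 nM azacitidine (0.106) or those at 125 nM (0.0514).

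Type V and type VI chains showed both directions in TLOm1. COL5A3, a type V chain, had 92, 357, 295 and 327 counts with romidepsin plus 0, 125, 250 and 500 nM azacitidine, against 256, 698, 827 and 513 without, and every matched pair was lower with romidepsin. COL6A3 had 703, 1794, 3037 and 3641 counts with romidepsin, against 479, 781, 1456 and 2611 without (0.93 ± 0.10, adjusted p = 9.73e-07). It was higher in every matched pair, and both arms increased with dose. COL6A2 had 3, 6, 3 and 32 counts with romidepsin against 0, 0, 0 and 9 without (2.44 ± 0.75, 0.0180), a call lost without the 500 nM libraries (0.113). In PF382, where COL6A2 was strongly expressed, it had 364, 642, 779 and 1293 counts with romidepsin and 425, 612, 577 and 533 without, and was not called.

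The head-to-head type IV genes did not move as pairs in every line. In TLOm1, COL4A1 had 1, 16, 38 and 49 counts with romidepsin plus 0, 125, 250 and 500 nM azacitidine, against 3, 9, 29 and 12 without, and was not called for romidepsin, while COL4A2 was lower with it. In PF382, COL4A3 had 26, 30, 22 and 33 counts with romidepsin against 15, 12, 7 and 14 without (1.25 ± 0.35, adjusted p = 0.0104). That call was lost without the 250 nM (0.0517) or 500 nM (0.0507) libraries and with DESeq2 (0.0732). Its neighbour COL4A4 had 12, 11, 10 and 18 counts with romidepsin against 13, 11, 5 and 8 without, overlapping groups that were not called. COL4A3 and COL4A4 encode chains of the kidney glomerular basement membrane. The difference between partners was not tested.

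In HH romidepsin raised 8 members and lowered 1, with 27.7% of all tested genes called, 14% higher and 13.7% lower; without the 250 nM libraries 5 were called in all. COL24A1 had 11, 19, 12 and 20 counts with romidepsin plus 0, 50, 125 and 250 nM azacitidine, against 0, 0, 1 and 1 without. The summed counts of 62 and 2 gave a ratio of 33.7 (8.94 to 284; adjusted p = 1e-05). COL12A1 had 141, 171, 113 and 133 counts with romidepsin against 37, 30, 38 and 21 without (2.22 ± 0.20, 3.33e-07). Neither gene's romidepsin libraries overlap the others, and neither changed in order with azacitidine dose. COL14A1 had 2, 1, 102 and 463 counts with romidepsin against 1, 3, 12 and 33 without (3.60 ± 0.39, 3.87e-06), a difference seen from 125 nM upward. DESeq2 did not call COL14A1 in HH (2.34, adjusted p = 0.057). COL4A6, with 965 to 1869 counts with romidepsin and 1203 to 2611 without, was lower by a log2 fold change of -0.37 ± 0.09 (0.0058); without the 125 nM (0.0506) or 250 nM (0.0591) libraries that call was lost.

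In H9 romidepsin raised 3 members and lowered 1, with 4.47% of all tested genes called, 3.64% higher and 0.831% lower. COL27A1 had 88, 144, 215 and 254 counts with romidepsin plus 0, 50, 125 and 250 nM azacitidine, against 31, 57, 62 and 67 without. The groups did not overlap (1.80 ± 0.15, adjusted p = 1.11e-06). COL6A1, the leading collagen of H9, had 431, 143, 144 and 145 counts with romidepsin, against 917, 785, 758 and 759 without. Every romidepsin library was below every other one (-1.90 ± 0.25, adjusted p = 0.000294). COL16A1 (0.93 ± 0.23, 0.0183) and COL11A2 (0.51 ± 0.12, 0.0121) were the other 2, and COL16A1 was lost when any 1 azacitidine level was left out. COL11A2 was lost without the 50 nM (0.0510), 125 nM (0.102) or 250 nM (0.0524) libraries, which left 2 calls each time.

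COL11A2, the type XI chain, was the member called higher with romidepsin in all 4 lines, by 0.49 to 0.99 on the log2 scale. COL1A1, COL5A2, COL14A1, COL16A1 and COL24A1 were called higher in 3 lines. The PF382 call of COL24A1 (0.83) was lost with any 1 azacitidine level left out (adjusted p = 0.0556 to 0.167) and with DESeq2 (0.120). COL4A6, COL6A1, COL9A2 and COL27A1 were called in both directions, depending on the line. The upward call of COL4A6, in TLOm1 (0.27), was lost without the 0 nM (adjusted p = 0.0549), 125 nM (0.158) or 250 nM (0.147) libraries. A test that the 4 romidepsin effects are equal was rejected for 16 of 36 members, with 33% of all tested genes called. Among those 16 were COL9A2 (adjusted p = 7.48e-09), COL27A1 (2.58e-07), COL6A1 (1.17e-05) and COL4A5 (1.53e-05). For COL11A2, COL5A2 and COL16A1 the differences between lines did not pass this test, which does not show that the effects were alike.

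**Figure D5:**
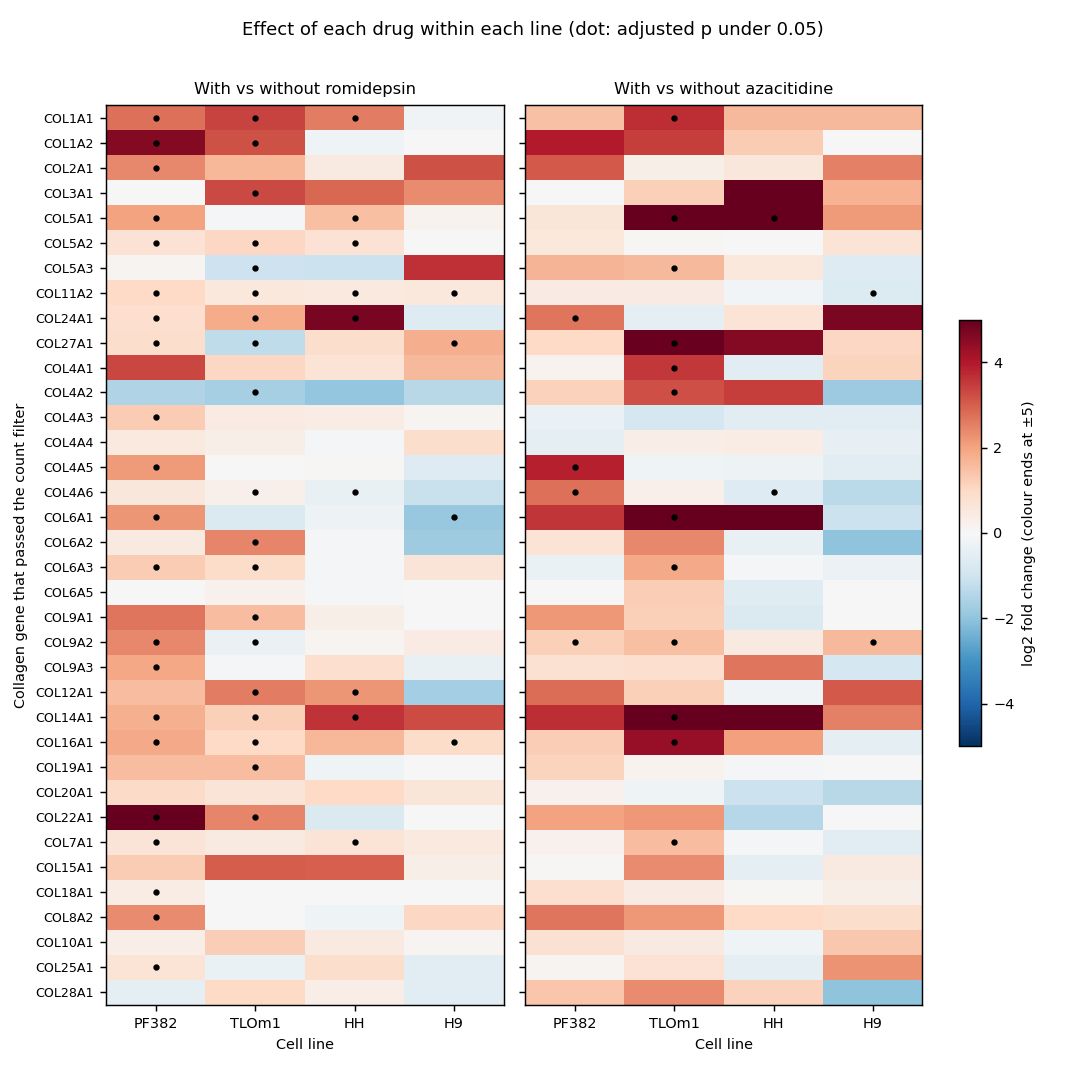
Fitted log2 fold change (colour, ending at ±5) for the 36 tested collagen genes (rows) in each line (columns), with against without romidepsin (left panel, 4 libraries each) and with against without azacitidine (right panel, 6 libraries against 2); dots mark an adjusted p under 0.05. In the romidepsin panel PF382 has 21 dots and H9 has 4, and COL6A1 is red in PF382 and blue in H9; deep colours without a dot are mostly genes with few counts.

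Azacitidine within lines compared the 6 libraries with any dose with the 2 without, in both romidepsin arms. Here too the doses stood in for replicates, and no condition of a line was repeated. In TLOm1 it raised 12 of 36 members and lowered 0, with 18.7% of all tested genes called and 11% higher. COL5A1 had 129, 317 and 396 counts with romidepsin plus 125, 250 and 500 nM and 104, 368 and 613 without romidepsin, against 2 and 0 counts in the libraries without azacitidine. The ratio of summed counts was 323 (89.2 to 2666; adjusted p = 0.000468). COL16A1 had 130, 365 and 465 counts with romidepsin and 69, 173 and 255 without, against 12 and 11 at 0 nM (4.37 ± 0.64, 0.000125). COL6A1 had 8, 87 and 485 counts with romidepsin and 47, 212 and 584 without, against 4 and 3 at 0 nM (6.09 ± 1.80, 0.0224), a call that was lost without the 500 nM libraries (0.0983). COL27A1 (4.94 ± 0.86), COL1A1 (3.70 ± 1.12), COL4A1 (3.52 ± 0.93), COL4A2 (3.23 ± 0.65), COL6A3 (1.91 ± 0.35), COL5A3 (1.61 ± 0.33), COL7A1 (1.55 ± 0.40) and COL9A2 (1.51 ± 0.26) were also higher, as was COL14A1. For COL1A1 the estimate rests mostly on the romidepsin arm, with 41, 120 and 440 counts against 6 at 0 nM. Without romidepsin COL1A1 had 20, 14 and 7 counts at 125, 250 and 500 nM, against 7 at 0 nM. COL7A1, the anchoring fibril of skin, reached 1855 counts with romidepsin plus 500 nM against 396 in untreated TLOm1 cells.

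In PF382 azacitidine raised 4 members and lowered 0, with 8.33% of all tested genes called and 5.94% higher. They were COL4A5 and COL4A6, which encode type IV chains and lie head to head on the X chromosome, with COL24A1 (2.66 ± 0.81) and COL9A2 (1.19 ± 0.31). COL4A5 had 28, 46 and 104 counts with romidepsin plus 125, 250 and 500 nM and 9, 12 and 19 without romidepsin, against 3 and 1 at 0 nM. COL4A6 had 3, 11 and 15 counts with romidepsin and 7, 7 and 7 without, against 2 and 0 at 0 nM. For COL4A5 the log2 fold change was 3.90 ± 0.61 (adjusted p = 0.000325), held with any 1 dose left out. The ratio for COL4A6 was 7.41 (1.95 to 62.9; adjusted p = 0.0338), lost without the 250 nM (0.0732) or 500 nM (0.109) libraries, and COL24A1 was lost without the same libraries (0.0850 and 0.143). COL9A2 was lost without the 500 nM libraries (0.0683), which left 1 call. Both X-linked genes had 421 to 2883 counts in every TLOm1 and HH library and at most 2 in H9. The 2 start windows share 121 bases on opposite strands, and are shown as the example of a pair read from 1 stretch. COL4A5 is on the plus strand at chrX:108439588-108439887 with 8 CG pairs and a ratio of 0.46, and COL4A6 on the minus strand at chrX:108439409-108439708 with 7 and a ratio of 0.49.
COL4A5: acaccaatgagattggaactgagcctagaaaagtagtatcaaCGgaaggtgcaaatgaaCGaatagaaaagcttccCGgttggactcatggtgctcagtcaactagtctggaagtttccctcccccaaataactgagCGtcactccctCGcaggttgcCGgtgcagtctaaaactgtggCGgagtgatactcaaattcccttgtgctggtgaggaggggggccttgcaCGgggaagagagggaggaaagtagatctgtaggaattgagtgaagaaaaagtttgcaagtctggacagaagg
COL4A6: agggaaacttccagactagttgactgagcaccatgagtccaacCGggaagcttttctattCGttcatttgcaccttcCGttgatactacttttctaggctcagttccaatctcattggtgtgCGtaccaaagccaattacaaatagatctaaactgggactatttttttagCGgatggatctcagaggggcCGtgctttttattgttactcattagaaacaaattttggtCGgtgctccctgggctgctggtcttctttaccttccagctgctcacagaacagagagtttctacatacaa

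In HH azacitidine raised COL5A1 and lowered COL4A6, with 5.87% of all tested genes called; 5 members were called without the 50 nM libraries and also 5 by DESeq2. COL5A1 had 8, 41 and 107 counts with romidepsin plus 50, 125 and 250 nM and 6, 19 and 36 without romidepsin, against 0 and 0 counts at 0 nM. It was at least 23.6-fold higher over the group (adjusted p = 0.0275), lost without the 250 nM libraries (0.101). COL4A6 was lower by a log2 fold change of -0.66 ± 0.15 (0.0107). In H9 azacitidine raised COL9A2 and lowered COL11A2 (-0.68 ± 0.17, 0.0178), with 5.86% of all tested genes called. COL9A2 had 69, 147 and 146 counts with romidepsin plus 50, 125 and 250 nM and 68, 114 and 118 without romidepsin, against 39 and 28 at 0 nM (1.61 ± 0.38, 0.0137). Its call was lost without the 250 nM libraries (0.0648), and that of COL11A2 without those at 125 nM (0.0682) or 250 nM (0.0580). Equality of the 4 azacitidine effects was rejected for 10 of 36 members, with 10.7% of all tested genes called. Among those 10 were COL4A5 (adjusted p = 0.00167), COL16A1 (0.00267), COL4A6 (0.00672), COL5A1 (0.0261) and COL6A1 (0.0280). COL9A2 was called higher in PF382, TLOm1 and H9.

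Azacitidine at 500 nM alone, given to PF382 and TLOm1, called 6 of 36 members higher and 0 lower than untreated cells, with 13.1% of all tested genes called, 7.92% higher and 5.16% lower. They were COL14A1, COL5A1, COL6A1, COL27A1, COL4A2 and COL18A1. COL27A1 had 567 and 208 counts in PF382 and TLOm1 with 500 nM, against 173 and 2 untreated (3.42 ± 0.78, adjusted p = 0.00576). COL5A1, at a log2 fold change of 5.04, was lost in the fit without HH (4.61, 0.0890) or without H9 (5.23, 0.0609). COL6A1 and COL4A2 were lost without HH (0.152 and 0.0869), which left 3 calls, and COL18A1 without H9 (0.0958). HH and H9 had no library at 500 nM. Their untreated libraries share a model term with those of PF382 and TLOm1, so they bear on the estimate and on the spread. At 50 nM, given to HH and H9, edgeR called 0 members with azacitidine, with 0.00562% of genes called. It called 0 with the combination, with 0.152% of genes called, 0.107% higher and 0.0449% lower. Under an unadjusted p of 0.05 there were 1 member and 580 genes with azacitidine, and 4 members and 1702 genes with the combination.

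COL4A4, COL10A1, COL15A1 and COL20A1 were tested and called in no comparison, and their highest counts stayed between 12 and 21. A further 7 members failed the filter.

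Genes that make, process, bind or degrade collagen are given for the same contrast, romidepsin plus 250 nM azacitidine against untreated cells, in which 14.2% of all tested genes were higher and 8.76% lower. Of 21 tested genes for prolyl and lysyl modification and folding, 4 rose and 1 fell, with a median log2 fold change of 0.22. FKBP10, a collagen chaperone of the endoplasmic reticulum, rose by 2.47 ± 0.52 (adjusted p = 0.00176), and P4HA1, a prolyl 4-hydroxylase subunit, fell by 1.37 ± 0.24 (0.000351). SERPINH1, the collagen chaperone HSP47, rose by 0.60 ± 0.20 (0.0361). Of 14 processing and cross-linking genes 6 rose and 0 fell, among them the lysyl oxidase LOXL1 (1.96 ± 0.46, 0.0043) and the procollagen C-proteinase BMP1 (0.56 ± 0.18, 0.0272).

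Of 12 collagen receptors 5 rose and 1 fell. DDR1, a receptor tyrosine kinase for collagen, had 2163 summed counts with the combination and 553 untreated and rose by 2.54 ± 0.48 (0.000842), while DDR2 had 1967 and 4633 and fell by 0.92 ± 0.33 (0.0453), though 2 of 4 lines were higher. ITGB1, the shared beta chain of the collagen-binding integrins, rose by 0.64 ± 0.10 (0.000125). Of 8 proteases 3 rose, MMP15 (3.31 ± 0.65, 0.00111), MMP9 (2.01 ± 0.45, 0.00317) and MMP2, which had 34 summed counts against 0 and was higher in 2 of 4 lines. Of 25 other matrix genes 7 rose, among them fibronectin FN1 (2.28 ± 0.24, 2.2e-06), and of 8 other genes with collagen-like helices 4 rose. Azacitidine at 250 nM called 3, 1, 1, 0, 0 and 2 genes of these 6 lists in the order given, with 5.99% of all tested genes called. Romidepsin alone called 0 in each by edgeR, with 0.0169% of all genes called.

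Promoter windows were found for 31 of the 43 members, 43 windows in all. A window was counted as CpG-rich where at least 50% of its bases were G or C and the observed over expected CG ratio was at least 0.6. That held for 21 of the 43 windows (48.8%) and for 46.9% of the 35116 windows of all genes, with median ratios of 0.57 and 0.58. The printed windows of COL5A1, COL12A1 and COL24A1 meet both limits, and those of COL27A1, COL16A1, COL4A5 and COL4A6 do not. In all, 3 head-to-head pairs share window bases: COL4A1 with COL4A2 (226), COL4A5 with COL4A6 (121) and COL4A3 with COL4A4 (82). Methylation and histone acetylation were not measured in these libraries.

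Markers of cells that make collagen were read in the same libraries. The summed level of 10 T-cell genes was 1437 to 2384 CPM in treated and 1851 to 2313 CPM in untreated libraries, and with the combination at 250 nM 0 of the 10 rose and CD3E fell. In that contrast 14.2% of all tested genes were higher and 8.76% lower. Of 11 fibroblast and stromal genes other than collagens, 2 of 9 tested rose, FBLN1 and FBLN2. Their summed level was 14.0 to 105 CPM in treated PF382 cells against 17.5 untreated, 45.7 to 87.985 against 93.6 in TLOm1, 2.65 to 9.20 against 1.96 in HH and 101 to 129 against 122 in H9. DPT was at 0 in all 8 libraries of PF382, TLOm1 and HH, and DCN, LUM and FAP at 0 in those of H9. Of the 11 stromal genes, 5 in PF382, 6 in TLOm1, 4 in HH and 9 in H9 stayed under 10 counts in all 8 libraries. In H9 only THY1 and PDGFRB reached 10 counts, so its summed level is nearly all theirs. Of 5 tested epithelial genes KRT8 and KRT18 rose, and of the 3 endothelial and 2 cartilage genes tested edgeR called 0. With the combination at 500 nM, given to PF382 and TLOm1, 6 of the 9 stromal genes rose (FBLN1, FBLN2, LUM, MFAP5, PDGFRA and THY1). So did 4 of the 5 epithelial genes (CLDN4, EPCAM, KRT8 and KRT18) and the endothelial VWF, while CD2, CD3E and ZAP70 fell. At that dose 22.4% of all tested genes were higher and 15.8% lower. The summed epithelial level was 6.79 to 133 CPM in treated PF382 cells against 5.02 untreated, 37.6 to 230 against 51.5 in TLOm1, 0.530 to 3.07 against 1.003 in HH and 91.7 to 185 against 105 in H9. The part of such cells in the collagen values was not tested.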

How the data were processed

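The authors deposited raw read counts per gene symbol, 1 column for each of 32 libraries. Per the submitters' processing notes, STAR, DESeq2 and limma were used with GRCh37.p2. Not given in the sources used here are versions, the counter, its annotation and whether it used strand. Per the labels' protocols the libraries were stranded, and both polyA RNA and rRNA depletion are named.

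Counts were tested as deposited with edgeR 4.0.16 in R 4.3.3: TMM scaling, filterByExpr (minimum count 10, minimum total 15), robust quasi-likelihood fits and Benjamini-Hochberg adjustment over 17801 symbols at 0.05. The cell line is the block of the fits over lines, since same-line libraries come from 1 line; all 60 same-line pairs among the 6 groups that every line has deviated together (correlations 0.883 to 0.984). DESeq2 1.42.0 and limma 3.58.1 were alternatives, and the scripts were tested on simulated data. CPM values are counts over the TMM effective library size. Ratios of counts carry exact 95% Poisson intervals for counting error only; against 0, the floor is 3 counts over the group. Exon lengths came from GENCODE 29 and start windows from RefSeq.

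Members and gene lists were chosen with earlier results of these data known. Values by library went to the members with the largest called changes in each comparison, the highest untreated levels and neighbouring pairs; COL27A1, COL9A3, COL11A1, COL11A2, COL18A1, COL6A5, COL7A1, COL25A1, SERPINH1, BMP1 and ITGB1 were added after their values were seen. No sequence is shown for COL14A1.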

Additional observations from a re-analysis of the deposited data

Results flagged for a closer look

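In 16 of 105 groups of 4 lines, 1 line stood apart from the other 3 by Dixon's test. The groups reuse the same lines, and COL4A1, COL4A2 and COL6A2 each appear under several treatments. For COL4A1 and COL4A2 the other 3 lines had at most 4 counts in the groups marked. The test's usual rate of about 1 in 20 groups therefore does not apply, and the 16 cannot be weighed against chance. TLOm1 stood apart for the head-to-head basement membrane genes. COL4A1 was at 1.26 CPM there with 250 nM azacitidine, and at 0.644 and 1.88 CPM with romidepsin plus 125 and 250 nM. COL4A2 was at 3.84 and 5.98 CPM in TLOm1 with 125 and 250 nM azacitidine, and at 0.765 and 1.59 CPM with romidepsin added. COL1A2 with romidepsin plus 250 nM azacitidine (0.645 CPM) and COL24A1 untreated (0.768 CPM) were also apart in TLOm1. PF382 stood apart for COL6A2, at 22.1 and 22.6 CPM with 125 and 250 nM azacitidine, 15.6 CPM with romidepsin and 24.5 CPM with romidepsin plus 125 nM, and for COL4A3 at 1.14 CPM with that last treatment. H9 was apart for COL6A1 at 29.998 CPM with 125 nM azacitidine, and HH for untreated COL22A1 at 1.79 CPM.

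For 16 of the 36 tested members the effect of romidepsin differed between the 4 lines, at adjusted p-values of edgeR's test of 7.48e-09 for COL9A2, 2.58e-07 for COL27A1, 1.17e-05 for COL6A1, 1.53e-05 for COL4A5 and 3.79e-05 for COL6A3. It was 0.00031 for COL9A3, 0.000841 for COL5A1, 0.000853 for COL24A1, 0.00152 for COL22A1, 0.00179 for COL1A1, 0.00512 for COL4A6, 0.00658 for COL14A1, 0.0173 for COL6A2, 0.0206 for COL19A1, 0.0335 for COL5A3 and 0.0370 for COL12A1. The effect of azacitidine differed for 10 members, at 0.00167 for COL4A5, 0.00267 for COL16A1, 0.00672 for COL4A6, 0.0117 for COL11A2, 0.0161 for COL6A3, 0.0241 for COL9A3, 0.0261 for COL5A1, 0.0280 for COL6A1, 0.0406 for COL27A1 and 0.0486 for COL7A1.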

How the results depend on the processing

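Counts of called members moved as follows. Without the cell line term (no replicate block), and likewise on the compared libraries only, 0 members were called for azacitidine at 250 nM (1 in the fits reported), the combination at 250 nM (14), and the combination against azacitidine (5) and against romidepsin (6). Azacitidine at 250 nM had 4 calls by DESeq2, 2 by limma and 4 with the highest dose of each line, and azacitidine in HH had 5 by DESeq2 against 2. The cause was not tested. With a limit of 3 counts, 10 members were silent in all lines against 17.

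With 1 line left out, calls numbered 8 to 12 for the combination at 250 nM, 1 to 3 at 125 nM, 1 to 3 for azacitidine at 250 nM, 0 to 1 at 125 nM and 3 to 4 at 500 nM. They numbered 0 to 4 for the combination against azacitidine, 4 to 7 against romidepsin and 11 to 19 for the dose slope. With 1 azacitidine level left out, romidepsin had 11 to 21 calls in PF382, 16 to 18 in TLOm1, 5 to 9 in HH and 2 to 3 in H9, and azacitidine 1 to 5, 11 to 13, 1 to 5 and 0 to 2. A tally of part of the single-member tests under the alternatives run had 249 unchanged, 80 calls lost and 0 reversed. The 80 are not a count of every fit in which a call was lost. Genes with few untreated counts are limited by depth: their ratios are bounds or wide intervals.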
